A study of Mus musculus with 3 samples.

Results

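The levels of 8 genes that mark arteries and veins were followed cell by cell in the lung endothelium of the P14 mouse. They were picked by symbol, 8 of the 28692 genes in the count tables. *Gja4*, *Gja5*, *Bmx*, and *Cytl1* form the artery set, and *Nr2f2*, *Slc6a2*, *Prss23*, and *Amigo2* form the vein set. The data were scRNA-Seq libraries from the whole lungs of 3 C57BL/6 mice (mice 2, 3, and 4), kept in room air (RA) from day 1 to day 14 of life. The 3 mice formed 1 group with no treated or mutant arm, and the mouse was the replicate. Each library came from freshly dissociated whole lung with no sort for endothelial cells (ECs). ECs were the cells with at least 4 unique molecular identifiers (UMIs, counts of single captured RNA molecules) of *Cdh5* and *Cldn5* together, which gave 949 of 7642 cells.

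Arteries and veins are lined by ECs with different gene programs. In arterial ECs, VEGF and Notch signals act through the ligand *Dll4*, the Hey repressors, and *Sox17*, and the arterial surface carries ephrin-B2. In veins the nuclear receptor COUP-TFII, the product of *Nr2f2*, holds Notch signaling down, and the ephrin receptor *Ephb4* is present. In the lung, most ECs are capillary ECs between these ends. *Gja4* and *Gja5* encode the gap junction proteins connexin 37 and connexin 40, *Bmx* encodes a TEC family tyrosine kinase known from arterial endothelium, and *Cytl1* encodes a small secreted protein first described in progenitor cells and cartilage. *Slc6a2* encodes the norepinephrine transporter, *Prss23* a secreted serine protease, and *Amigo2* a leucine-rich repeat adhesion protein.

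On GRCm38 (mm10), *Gja4* lies at chr4:127311421-127314039 on the minus strand, *Gja5* at chr3:96904693-97077416 on the plus strand, *Bmx* at chrX:164192842-164258193 on the minus strand, and *Cytl1* at chr5:37735519-37739820 on the plus strand. *Nr2f2* lies at chr7:70351944-70366735 on the minus strand, *Slc6a2* at chr8:92960079-93001667 on the plus strand, *Prss23* at chr7:89507783-89527187 on the minus strand, and *Amigo2* at chr15:97244125-97247287 on the minus strand. In GENCODE M21 none of the 8 genes shared its strand with another gene at its position. Genes on the opposite strand overlapped *Gja5*, *Prss23* (*Prss23os*), *Amigo2* (*Pced1b*), and *Nr2f2* (*B130024G19Rik*), and whether the counting used strand is not given in the sources used here.

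RefSeq promoter windows (GRCm38.p6) matched 7 of the 8 genes, all but *Slc6a2*. The 150 bases before the RefSeq start are printed for the artery connexins and for *Nr2f2*, the regulator of vein identity, since the results turn on these genes. The *Gja5* window lies inside the *Gja5* span given above, so its RefSeq start is not the first base of that span. Capitals mark the ETS core GGAA on either strand (TTCC on the printed strand), which is the core that the ETS factors of ECs bind.

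*Gja4*, chr4:127314040-127314189, minus strand: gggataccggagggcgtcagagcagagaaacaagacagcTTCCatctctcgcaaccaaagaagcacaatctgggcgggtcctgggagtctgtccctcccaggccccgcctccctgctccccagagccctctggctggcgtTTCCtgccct

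*Gja5*, chr3:97032252-97032401, plus strand: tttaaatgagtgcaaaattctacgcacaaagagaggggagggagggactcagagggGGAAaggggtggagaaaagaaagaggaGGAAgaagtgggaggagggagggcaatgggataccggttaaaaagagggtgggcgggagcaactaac

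*Nr2f2*, chr7:70366747-70366896, minus strand: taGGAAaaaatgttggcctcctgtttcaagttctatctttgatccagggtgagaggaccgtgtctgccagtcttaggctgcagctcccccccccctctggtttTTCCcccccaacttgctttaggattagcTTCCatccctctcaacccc

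GGAA was found 2 times in the *Gja4* window, 2 times in the *Gja5* window, and 3 times in the *Nr2f2* window. The same core was present in 80.8% of the 32851 RefSeq promoter windows of this length, so its presence here was common to most genes. The letters TGGGAA, bound by the Notch partner RBPJ and holding the ETS core in them, were in none of these 3 windows and in 13.1% of all windows.

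The 3 libraries held 9644 cells with 22476491 to 25192427 UMIs each, and 7642 cells were kept, those with 200 or more genes detected and no more than 20% of UMIs from mitochondrial genes. ECs numbered 358, 228, and 363 in mice 2, 3, and 4, with a median of 8086 UMIs per EC and 7774 to 8518 by mouse. Other EC genes were present in most of these cells. *Tie1* was detected in 94.0%, *Egfl7* in 98.2%, and *Ramp2* in 98.1% of ECs, against 0.475%, 2.93%, and 1.90% of 1263 B cell-like cells. *Pecam1* was detected in 97.7% of ECs but also in 54.9% of B cell-like cells, and *Erg* in 69.7% and 0.871%. In the other kept cells the shares were 1.61% for *Tie1*, 11.6% for *Egfl7* and *Ramp2*, 22.2% for *Pecam1*, and 3.93% for *Erg*. The library pairs shared 2 to 5 barcodes, and none of the ECs shared one. Of the ECs, 242 (25.5%) also held at least 4 UMIs of the marker list of an epithelial, stromal, or immune class, and these are called mixed ECs below. Among them, 48 were mixed through *Col14a1* alone.

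Levels are given as CPM, the UMIs of a gene per 1000000 UMIs summed over the cells of a mouse. *Gja4* was at 317, 254, and 263 CPM in the ECs of mice 2, 3, and 4 (278 ± 34.1, mean ± SD, n = 3). It was the artery gene seen in most ECs, with a UMI in 632 of 949 cells (66.0% ± 3.95 per mouse, n = 3), and its RNA was spread widely, since the 47 ECs with the most *Gja4* held 28.5% of its EC UMIs. *Gja5* was at 91.5, 153, and 134 CPM (126 ± 31.4, n = 3) and was seen in 187 ECs (19.9% ± 1.68). Its RNA was more concentrated, with 66.9% of its EC UMIs in the top 47 cells. *Bmx*, the kinase gene, was at 56.1, 74.8, and 53.6 CPM (61.5 ± 11.6, n = 3), in 175 ECs (18.5% ± 0.751).

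*Cytl1* was at 88.0, 141, and 141 CPM (123 ± 30.5, n = 3), but in only 97 ECs (10.6% ± 2.89). The 47 ECs with the most *Cytl1* held 92.1% of its EC UMIs, and the highest cell had 126 UMIs. No mouse was the lowest for all 4 genes. Mouse 2 was highest for *Gja4* and lowest for *Gja5* and *Cytl1*.

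Among the vein genes, *Nr2f2* was at 158, 229, and 177 CPM in ECs (188 ± 36.7, n = 3), in 325 ECs (35.1% ± 5.31). *Slc6a2* was at 286, 269, and 131 CPM (229 ± 85.1, n = 3), in 104 ECs (11.6% ± 3.69). Mouse 4 was the low mouse for *Slc6a2*, and its 33 *Slc6a2*+ ECs were close in number to the 35 and 36 of mice 2 and 3. As shares of ECs these were 9.78%, 15.8%, and 9.09% in mice 2, 3, and 4. The top 47 ECs held 79.9% of the *Slc6a2* UMIs, up to 138 in a cell. *Prss23* was at 242, 240, and 185 CPM (222 ± 32.4, n = 3), in 382 ECs (40.4% ± 1.65). *Amigo2* was at 64.6, 98.3, and 45.6 CPM (69.5 ± 26.7, n = 3), in 235 ECs (25.8% ± 6.56), and mouse 3 was its highest mouse. Mouse 4 was the lowest mouse for *Slc6a2*, *Prss23*, and *Amigo2* but not for *Nr2f2*.

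These vein levels depended on the mixed ECs. With mixed ECs left out, *Slc6a2* was at 114 CPM and in 6.59% of ECs, *Nr2f2* was at 104 CPM, and *Prss23* was at 140 CPM (means of 3 mice), each more than 1.5 times lower. When *Col14a1* was not counted as a marker of other cells, none of the 8 genes moved that far. The artery genes *Gja4* and *Gja5* were higher with all mixed ECs left out, at 333 and 159 CPM, changes beyond their SD between mice. Of the 87 ECs with at least 5 *Slc6a2* UMIs, 56 were mixed, and 39 of these through *Col14a1* alone. The part of other cells' RNA in these levels was not tested.

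Detection depends on depth, so each cell was also thinned in expectation to 1000 UMIs. Thinned shares ran from 4.96% of ECs for *Cytl1* to 22.5% for *Gja4*, and *Slc6a2* moved least, from 11.6% to 8.58%. In B cell-like cells, which should lack these genes and had a median depth of 3717 UMIs against 8086 in ECs, a UMI was seen in 0 of 1263 cells for *Gja5* and *Bmx*, in 2 for *Gja4*, 3 for *Cytl1*, 4 for *Slc6a2*, 9 for *Prss23*, 15 for *Nr2f2*, and 24 for *Amigo2*. The highest of these shares, 1.90% for *Amigo2* (95% exact interval 1.22% to 2.81%, counting error only), was far below the EC share. Thinned to the same depth, *Amigo2* was seen in 0.524% of B cell-like cells and 6.14% of ECs.

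The artery genes were found in the same cells to different degrees. Of the 187 *Gja5*+ ECs, 176 (94.1%) also had *Gja4*, against 59.8% of the *Gja5*- ECs, and 117 (62.6%) had *Bmx*, against 7.61%. *Gja5* was therefore nearly nested in *Gja4*: of 317 ECs with no *Gja4* UMI, 11 had *Gja5*. Among the 97 *Cytl1*+ ECs, 73 had *Bmx*, 74 had *Gja4*, and 57 had *Gja5*. All 4 artery genes were detected together in 46 ECs, and 5 of the *Cytl1*+ ECs had none of the other 3.

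The vein genes were nested more tightly around *Slc6a2*. Of 104 *Slc6a2*+ ECs, 100 had *Prss23*, 98 had *Nr2f2*, and 92 had *Amigo2*, and 88 had all 3. Without *Slc6a2*, *Prss23* was seen in 33.4%, *Nr2f2* in 26.9%, and *Amigo2* in 16.9% of 845 ECs. The reverse did not hold, since 98 of 325 *Nr2f2*+ ECs and 100 of 382 *Prss23*+ ECs had *Slc6a2*. The *Slc6a2*+ and *Slc6a2*- ECs had median depths of 9180.5 and 7989 UMIs, and the shares among the 787 ECs with at least 5000 UMIs were close to those above, for example 96.7% against 29.9% for *Nr2f2*.

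Across the sets, *Gja5* and *Slc6a2* were seldom in the same cell. *Slc6a2* was seen in 7 of 187 *Gja5*+ ECs (3.74%) and in 97 of 762 *Gja5*- ECs (12.7%), and the 7 cells were spread as 2, 3, and 2 over mice 2, 3, and 4. Of the 85 ECs with at least 5 *Gja5* UMIs, 0 had an *Slc6a2* UMI, which allows a share of up to 3.53%. *Gja4* did not separate from the vein genes in this way: it was seen in 54 of 104 *Slc6a2*+ ECs and in 211 of 325 *Nr2f2*+ ECs. Its level was nevertheless lower there, at 120 CPM in *Slc6a2*+ against 303 CPM in *Slc6a2*- ECs.

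**Figure D1:**
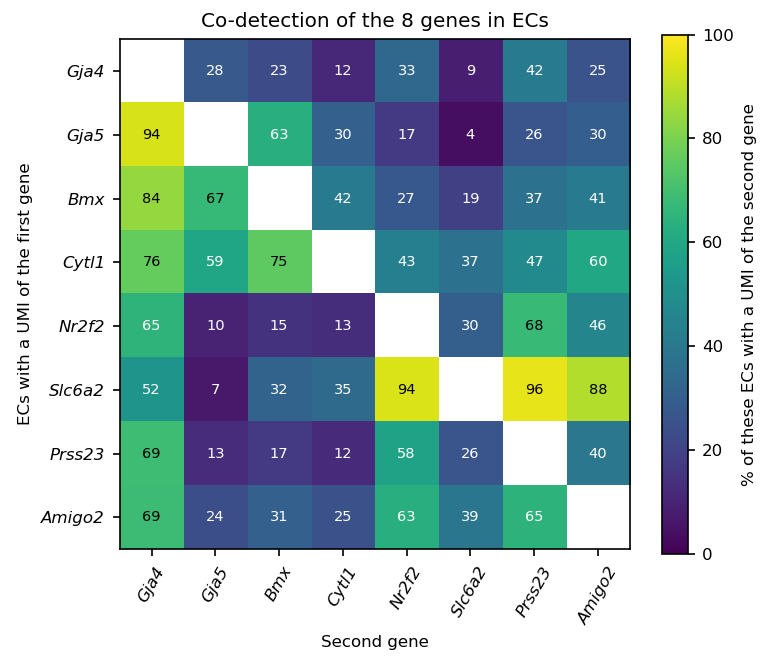
Co-detection of the 8 genes in 949 ECs. Each cell of the grid gives the percentage of ECs with a UMI of the row gene that also had a UMI of the column gene; the *Slc6a2* row is above 85 for the other vein genes and at 7 for *Gja5*, and the *Cytl1* row is above 30 for every gene.

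*Bmx* and *Cytl1* were found in cells of both kinds. *Cytl1* was seen in 52 of 180 ECs with *Gja5* and no *Slc6a2* (28.9%) and in 31 of 97 ECs with *Slc6a2* and no *Gja5* (32.0%), against 9 of the 665 ECs with neither gene (1.35%). Its level was 384, 399, and 425 CPM in the *Gja5*+ cells of mice 2, 3, and 4 (403 ± 21.1, n = 3), and 144, 163, and 192 CPM in the *Slc6a2*+ cells (166 ± 24.3, n = 3). In the ECs with neither gene it was 1.52, 3.81, and 5.04 CPM (3.46 ± 1.78, n = 3). The 3 kinds of cell did not overlap between mice, and their median depths were 8610.5, 8948, and 7761 UMIs.

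*Bmx* followed the same order, at 194 ± 50.0 CPM with *Gja5*, 80.8 ± 23.9 CPM with *Slc6a2*, and 7.22 ± 4.03 CPM with neither (n = 3 mice, mean ± SD), and it was seen in 113, 29, and 29 of these cells. *Amigo2*, although in the vein set, was also seen with *Cytl1*: 58 of 97 *Cytl1*+ ECs had it, against 20.8% of the *Cytl1*- ECs. By level, *Amigo2* was at 322 ± 78.5 CPM in the *Slc6a2*+ cells and at 34.0 ± 16.6 CPM in the *Gja5*+ cells, and the latter range (18.6 to 51.6 CPM) overlapped that of ECs with neither gene (16.3 to 29.8 CPM). *Gja4* was lowest in the *Slc6a2*+ cells, at 114 ± 11.6 CPM, below the 213 ± 40.4 CPM of ECs with neither gene, with no overlap between mice.

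**Figure D2:**
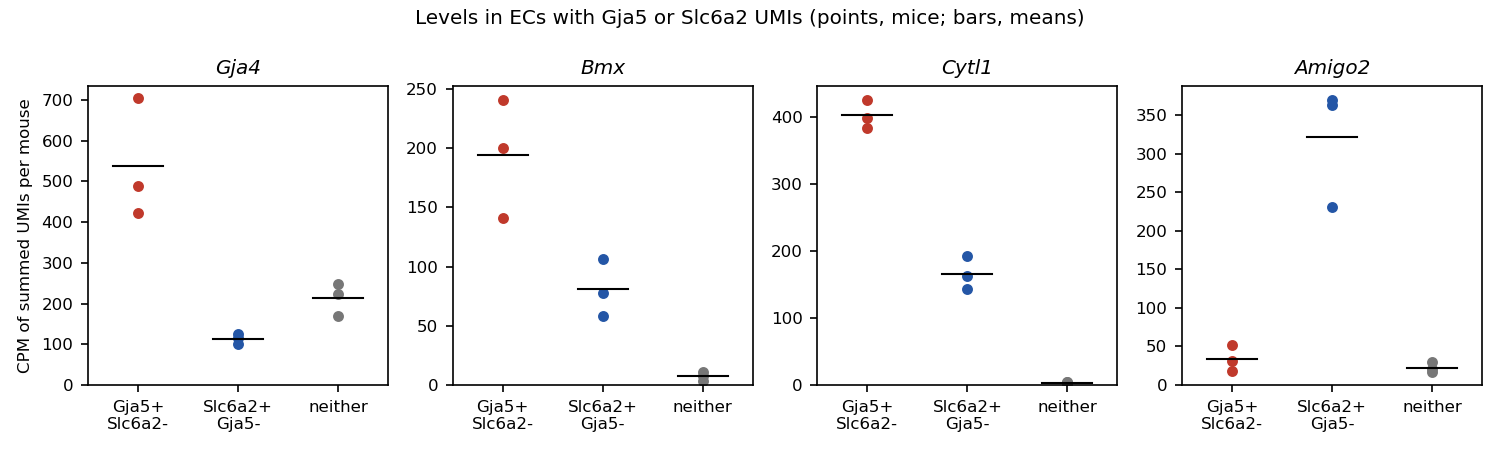
CPM of *Gja4*, *Bmx*, *Cytl1*, and *Amigo2* in ECs with *Gja5* and no *Slc6a2* UMI (180 cells), with *Slc6a2* and no *Gja5* UMI (97 cells), and with neither (665 cells); points are the 3 mice and bars their means. *Cytl1* and *Bmx* are high in both of the first kinds of cell and near 0 in the last, while *Gja4* is lowest in the *Slc6a2*+ cells.

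When members of a set were counted per cell, 130 ECs had 3 or 4 artery genes and 134 had 3 or 4 vein genes. Only 13 ECs had 3 or 4 of both sets, 12 of these were mixed ECs, and their median depth was 22331 UMIs. In 143 ECs no UMI of either set was seen.

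For a comparison of the rest of the genome, ECs were put on a side by their summed UMIs. Artery-side ECs had at least 3 UMIs of the artery set and at least 3 times as many as of the vein set, and vein-side ECs the reverse. This gave 293 artery-side ECs (33.0%, 27.6%, and 30.9% of ECs in mice 2, 3, and 4; 30.5% ± 2.68, n = 3) and 181 vein-side ECs (15.6%, 25.4%, and 18.5%; 19.8% ± 5.04). A further 77 ECs had at least 3 UMIs of both sets without reaching either side, with a median of 17271 UMIs, and the other 398 met neither rule, with a median of 6912 UMIs. The sides were close in depth, with medians of 8371 and 9728 UMIs, and in mitochondrial share, with medians of 6.57% and 7.35%.

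**Figure D3:**
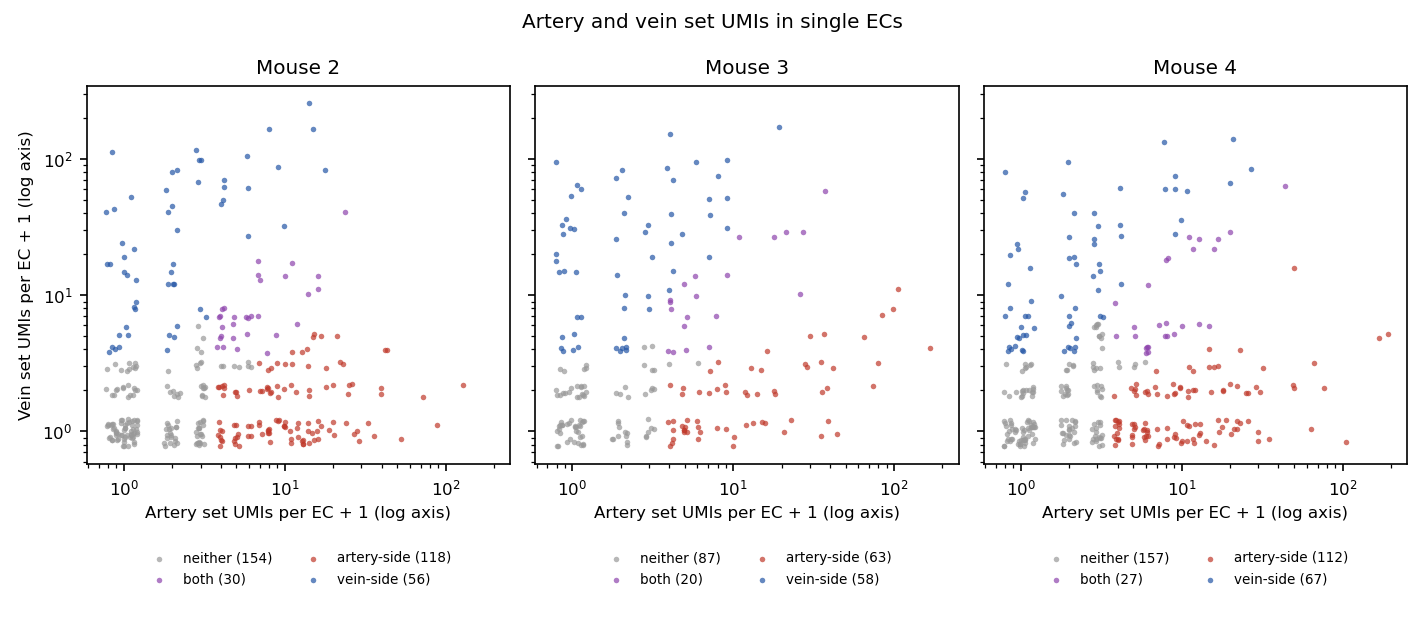
Summed UMIs of the artery set (x axis) and the vein set (y axis) in each EC of mice 2, 3, and 4, plotted as UMIs plus 1 on log axes with small random shifts; colors give the side and the legend the number of ECs. ECs of a side lie toward its axis, and the 77 ECs with at least 3 UMIs of both sets that reached neither side lie between.

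The rule fixes that the artery genes are high on one side and the vein genes on the other, so their levels by side are a description. *Slc6a2* had 2315 UMIs in vein-side ECs and 0 in the 293 artery-side ECs, where the rule itself counts *Slc6a2* against a cell. *Gja5* was at 381 ± 112 CPM artery-side and 4.35 ± 2.61 CPM vein-side. It was seen in 160 of the 293 artery-side ECs, whereas *Gja4* was seen in 286 of them. The other artery genes kept a level on the vein side. *Gja4* was at 90.8 ± 10.1 CPM, in 96 of 181 vein-side ECs, *Cytl1* at 40.5 ± 16.8 CPM, in 25, and *Bmx* at 22.4 ± 2.33 CPM, in 26. *Prss23* and *Amigo2* kept 28.1 ± 6.62 and 28.9 ± 17.3 CPM on the artery side (n = 3 mice each).

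ECs were also put in states by marker lists. The 643 ECs of the Aplnr/Kit list took in 143 of the vein-side and 197 of the artery-side ECs. The 122 ECs of the *Car4* list were by mean the lowest state for *Gja4* (92.7 ± 26.8 CPM), *Gja5* (32.6 ± 6.89), *Nr2f2* (91.1 ± 18.9), and *Prss23* (52.6 ± 24.4). The 114 ECs with no state were the highest for the artery set, with *Gja4* at 442 ± 27.5, *Gja5* at 671 ± 163, *Bmx* at 287 ± 34.9, and *Cytl1* at 1067 ± 292 CPM (n = 3 mice), and their median depth was 4020 UMIs. The ranges of these 4 genes in cells with no state did not overlap with those of any other state with values for all mice. In the 65 dividing ECs, *Amigo2* was at 13.1 ± 6.72 CPM. Only 5 ECs had the lymphatic list. All 5 had *Nr2f2*, *Prss23*, and *Gja4* UMIs (32 of *Gja4* in all), 3 had *Bmx*, and none had *Gja5*, *Cytl1*, *Slc6a2*, or *Amigo2*.

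Outside the endothelium the 8 genes differed in how far they were confined to ECs. *Slc6a2* was the most EC-bound, with 98.3% ± 0.290 of its UMIs in kept cells found in ECs, followed by *Gja4* with 93.1% ± 1.91 and *Gja5* with 86.0% ± 0.499. For *Nr2f2* the share was 14.7% ± 1.38 (n = 3 mice). Other cells were placed in classes by the UMIs of marker lists, and a class is named here only for its list.

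*Nr2f2* was higher in every stromal class than in ECs. It was at 811, 538, and 802 CPM in pericyte-like cells of mice 2, 3, and 4 (717 ± 155), 663 ± 43.0 in Col13a1-type fibroblasts, 635 ± 63.7 in myofibroblast-like cells, and 613 ± 71.9 in Col14a1-type fibroblasts, and these 4 overlapped. Smooth muscle-like cells were lower, at 466 ± 36.1 CPM, and ECs lower again, at 188 ± 36.7, each without overlap (n = 3 mice). The vein-side ECs, which were chosen in part by their *Nr2f2* UMIs, were at 558 ± 54.3 CPM (499 to 607). This range overlapped myofibroblast-like cells, Col14a1-type fibroblasts, and, through mouse 3 alone, pericyte-like cells. It lay below Col13a1-type fibroblasts and above smooth muscle-like cells. The rule favors a high level here, and 86 of the 181 vein-side ECs were mixed ECs, so this order is a description only. *Prss23* was at 256 ± 35.9 CPM in smooth muscle-like cells, in 201 of 295 cells, which overlapped the EC range, and at 91.0 ± 20.5 CPM in Col14a1-type fibroblasts. *Amigo2* was second in smooth muscle-like cells, at 29.5 ± 5.81 CPM in 79 of 295 cells.

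*Gja5* was also seen in fibroblasts. In Col13a1-type fibroblasts it was at 93.9, 48.4, and 114 CPM (85.4 ± 33.5, n = 3), in 45 of 81 cells with at most 8 UMIs each, and this range overlapped that of ECs. *Gja4* had 0 UMIs in these 81 cells, which allows a share of up to 3.70%. A *Cdh5* or *Cldn5* UMI was seen in 6.67% of the *Gja5*+ and 5.56% of the *Gja5*- cells of this class. In Col14a1-type fibroblasts *Gja5* was at 35.5 ± 8.41 CPM, in 44 of 172 cells. *Gja4* showed the opposite distribution among stromal cells: it was second in pericyte-like cells, at 125, 37.7, and 95.3 CPM (85.8 ± 44.2), where *Gja5* had 0 UMIs in 140 cells, which allows a share of up to 2.14%.

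*Bmx* was highest in neutrophil-like cells, at 98.5, 145, and 78.3 CPM (107 ± 34.2, n = 3), above the EC range of 53.6 to 74.8 CPM in all 3 mice. It was seen in 76 of 397 of these cells, with at most 5 UMIs, and the class had a median of 2232 UMIs per cell. In no other class with values in all mice did its mean exceed 1.02 CPM. Among classes with too few cells in some mice, alveolar macrophage-like cells had *Bmx* in 9 of 47 cells. It was at 25.3 and 30.5 CPM there in mice 3 and 4. Club-like cells were at 10.7 and 16.5 CPM in mice 2 and 4, and basophil- or mast cell-like cells held 3 UMIs in all.

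*Cytl1* was highest in pericyte-like cells, at 725, 3178, and 433 CPM (1446 ± 1508), and this value rested on few cells. All 1112 UMIs came from 10 of the 140 cells, 7 of them in mouse 3, and the other 130 cells had 0, which allows a share of up to 2.31%. Each of the 10 cells also had UMIs of *Col2a1*, *Acan*, and *Sox9*, which are genes of cartilage, and none had a *Cdh5* or *Cldn5* UMI. The name of the list does not describe these cells. They stayed in the class for the other genes too, and they had 0 *Gja4* UMIs. In mouse 3 they were 7 of 27 pericyte-like cells, and this was the low mouse of the class for *Nr2f2* and *Gja4*. Their part in those values was not tested. Among all cells with at least 20 *Cytl1* UMIs, 18 were ECs and 13 were not. *Col2a1* or *Acan* was found in 0 of the 18 ECs, which allows a share of up to 16.7%, and in all 13 of the others.

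**Figure D4:**
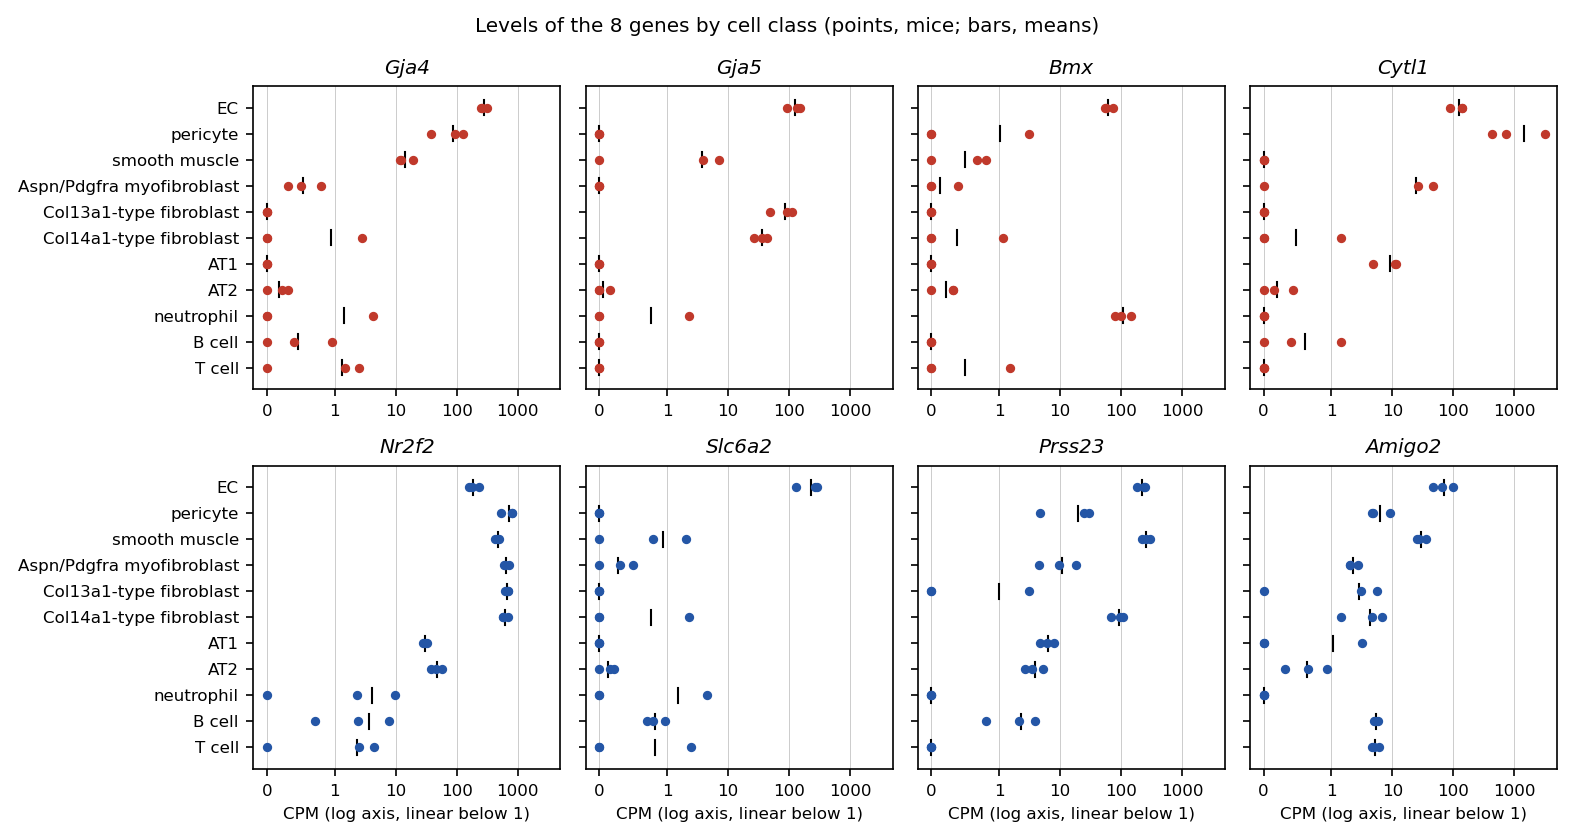
CPM of the 8 genes by cell class (artery set red, vein set blue), on an axis that is linear below 1 and logarithmic above; points are the 3 mice and bars their means. ECs are highest for *Gja4*, *Gja5*, *Slc6a2*, and *Amigo2*, whereas *Nr2f2* is higher in the stromal classes, *Bmx* in neutrophil-like cells, and *Cytl1* in a few cells of the pericyte list.

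UMIs of all other genes were then summed over the artery-side and the vein-side ECs of each mouse and compared with edgeR's quasi-likelihood test. The 8 genes were left out of the tested genes because they made the groups. Of 9171 genes tested, 361 (3.94%) were higher in artery-side ECs and 494 (5.39%) were higher in vein-side ECs at an adjusted p under 0.05 (n = 3 mice per side), 855 genes (9.32%) in all. Because the sides were drawn from the UMIs of the 8 genes in the same cells, the test describes cells so chosen and not separately sampled arteries and veins. Without mouse 2 the counts were 225 and 251, without mouse 3 they were 235 and 309, and without mouse 4 they were 254 and 473. When *Gja4* was not counted in the artery set they were 790 and 956, and 16 of the genes first called were called in the other direction. That change also redrew both sides. Artery-side ECs went from 118, 63, and 112 to 50, 34, and 50 in mice 2, 3, and 4. Vein-side ECs went from 56, 58, and 67 to 92, 76, and 96.

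Of 22 other artery genes from a list, all were tested, and 16 were higher in artery-side ECs, 3 were lower, and 3 did not pass. The median log2 fold change of the list was 1.09, against 0.01 over all tested genes. The Notch pathway genes were among those that passed. *Dll4*, the ligand, was at 330.5, 365, and 341 CPM in artery-side and at 42.9, 39.4, and 30.9 CPM in vein-side ECs (log2 fold change 3.19 ± 0.14 SE, edgeR adjusted p = 2.17e-07). Its targets *Hey1* and *Hey2* had log2 fold changes of 4.19 ± 0.22 and 3.86 ± 0.47, and the receptors *Notch1* and *Notch4* of 0.93 ± 0.11 and 1.14 ± 0.12. *Efnb2*, which encodes ephrin-B2, was at 1105, 1350, and 1153 CPM against 125, 172, and 192 CPM (log2 fold change 2.86 ± 0.15, edgeR adjusted p = 6.10e-07). In each of these genes the sides did not overlap.

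*Cxcl12*, a chemokine of arterial ECs, and its receptor *Cxcr4* were both higher artery-side, by 4.31 ± 0.16 and 3.55 ± 0.25 on the log2 scale. *Cxcl12* was at 1868, 1907, and 1811 CPM artery-side and 97.4, 113, and 69.8 CPM vein-side. *Sox17*, a transcription factor of arterial fate, was higher by 1.23 ± 0.14 on the log2 scale. The ligand *Jag1* (0.09 ± 0.17), *Nrp1* (0.38 ± 0.12), and *8430408G22Rik* (0.90 ± 0.43) did not pass, with edgeR adjusted p of 0.86, 0.072, and 0.29. When *Gja4* was not counted *Jag1* passed artery-side (1.17, edgeR adjusted p = 5.15e-05). With the mouse as a block *Nrp1* passed (adjusted p = 0.0135) and *Jag2*, at 0.91 ± 0.25 and adjusted p = 0.0423 in edgeR without the block, did not (adjusted p = 0.0501).

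The 3 genes of the artery list that went the other way were *Vegfc*, *Eln*, and *Fbln2*. *Vegfc*, a growth factor of lymphatic vessels, was at 27.9, 20.4, and 19.9 CPM artery-side and 282, 227, and 205 CPM vein-side (log2 fold change -3.37 ± 0.18, edgeR adjusted p = 6.10e-07). *Eln* and *Fbln2*, which encode elastin and the elastic fiber protein fibulin 2, were lower by -1.21 ± 0.21 and -0.92 ± 0.18 on the log2 scale. Both lost the call without mouse 2, with edgeR adjusted p of 0.0622 and 0.0770, and *Eln* also without mixed ECs (0.60). When *Gja4* was not counted in the artery set, both turned, to 0.37 (edgeR adjusted p = 0.11) and 0.62 (adjusted p = 0.00136).

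Of 16 other vein genes 14 were tested, and 9 were higher in vein-side ECs, none in artery-side ECs, and 5 did not pass. The median log2 fold change was -0.97. Of the 5, *Selp* and *Vcam1* passed artery-side when *Gja4* was not counted (3.23 and 2.12, edgeR adjusted p = 1.07e-05 and 0.000470) and when mixed ECs were left out with *Col14a1* not counted (1.71 and 1.28, adjusted p = 0.0402 and 0.0405). *Selp* also passed with DESeq2 and without mouse 2. *Nrp2*, a coreceptor of veins and lymphatics, was at 7.53, 3.40, and 16.1 CPM artery-side and 300, 201, and 348 CPM vein-side (log2 fold change -4.88 ± 0.32, edgeR adjusted p = 3.61e-06). *Bst1*, an ectoenzyme, and *Nr2f1*, the sister gene of *Nr2f2*, had log2 fold changes of -3.83 ± 0.45 and -2.25 ± 0.32. *Ephb4*, the receptor of ephrin-B2, differed less, by -0.70 ± 0.10, at 284, 263, and 260 CPM artery-side against 433, 458, and 412 CPM vein-side, without overlap. *Aplnr*, the apelin receptor, was at -1.17 ± 0.11.

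*Vwf* and *Cpe* were higher vein-side, with log2 fold changes of -0.94 ± 0.23 and -1.08 ± 0.28. Each lost the call without mouse 2 (edgeR adjusted p = 0.23 and 0.082) and turned when *Gja4* was not counted, to 0.98 and 0.86 (edgeR adjusted p = 0.000359 and 0.00411). Without mixed ECs *Cpe* lost the call as well (0.53). The other vein genes that did not pass were *Selp* (1.33 ± 0.46), *Vcam1* (0.79 ± 0.41), *Il1r1* (-0.50 ± 0.25), *Plvap* (-0.03 ± 0.12), and *Flt4*, which was at 69.0 ± 16.8 CPM artery-side and 134 ± 83.5 CPM vein-side.

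**Figure D5:**
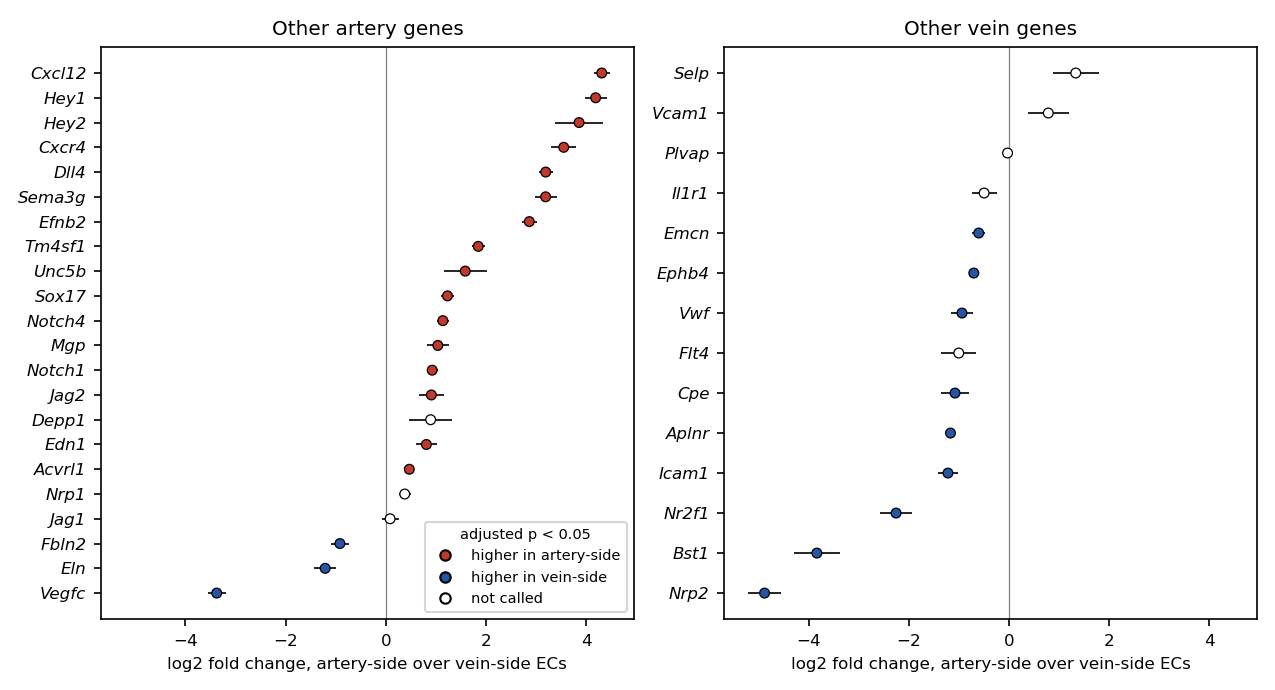
Log2 fold change, artery-side over vein-side ECs, of the other artery genes (left, 22) and other vein genes (right, 14); bars are SEs, and fill shows an edgeR adjusted p under 0.05 with the higher side. On the left 16 genes are red and 3 blue, and on the right 9 are blue and none red.

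Leaving out a mouse ended the call of further genes of these lists. *Jag2* lost it without any of the 3 mice (edgeR adjusted p from 0.0591 to 0.30), *Acvrl1* and *Edn1* without mouse 2 or 4 (0.0582 to 0.23), *Unc5b* and *Emcn* without mouse 2 or 3 (0.092 to 0.28), and *Mgp* without mouse 4 (0.0638). Counted by list, 12 to 14 artery genes and 6 to 9 vein genes passed when a mouse was left out. Without mixed ECs *Acvrl1*, *Edn1*, and *Jag2* lost the call as well (edgeR adjusted p = 0.21, 0.11, and 0.34). *Edn1* also lost it without mixed ECs when *Col14a1* was not counted (0.19), and *Acvrl1* and *Jag2* when *Gja4* was not counted (0.68 and 0.61).

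The capillary list of 10 genes gave 2 higher artery-side, *Hilpda* (2.66 ± 0.13) and *Cd36* (0.65 ± 0.14), and 1 higher vein-side, *Fibin* (-1.42 ± 0.21). *Car4* did not pass (0.62 ± 0.21, edgeR adjusted p = 0.11). *Cd36* lost its call without mouse 2 (edgeR adjusted p = 0.22), and it turned, to -0.76, when *Gja4* was not counted. In that fit *Hilpda* alone of the list was higher artery-side, and the other 9 genes all passed vein-side, among them *Sema3c* (-3.96, edgeR adjusted p = 7.87e-10), *Car4* (-2.46), and *Kit* (-2.13). The side on which capillary genes were higher thus depended on whether *Gja4* was counted. Single genes of the list also passed in other fits. Without *Prss23* in the vein set *Kit* and *Sema3c* passed artery-side and *Ednrb* vein-side. Without mixed ECs *Sema3c* passed vein-side (-0.65, edgeR adjusted p = 0.0489). *Fibin* lost its call without *Prss23* in the vein set, and without mixed ECs when *Col14a1* was not counted (-0.77, edgeR adjusted p = 0.40). Of 6 lymphatic genes only *Lyve1* was tested, at 0.50 ± 0.11 (edgeR adjusted p = 0.0145), and it lost the call without mouse 2 or 3 (0.0616 and 0.16). *Lyve1* also lost it without mixed ECs when *Col14a1* was not counted (edgeR adjusted p = 0.40). *Prox1* was not among the tested genes.

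The 10 genes with the greatest fold on each side, called and with the same sign in all 3 mice, were named by rule. On the artery side they were *Stk32a*, *Dkk2*, *Sost*, *Esr2*, *Kcne3*, *Slc45a4*, *Sfrp1*, *Tnfrsf26*, *Gkn3*, and *Cxcl12*. Of these, *Dkk2*, *Sost*, and *Sfrp1* encode secreted inhibitors of Wnt signaling. *Dkk2* had 188 UMIs artery-side and 1 UMI vein-side, a ratio of 140 with a 95% counting interval of 24.7 to 5539. *Sost* had 44 UMIs against 0 and was at least 10.9-fold higher, and *Stk32a* had 49 against 0 and was at least 12.1-fold higher, with the floor of 3 UMIs set over the vein-side sum. *Slc45a4*, a solute carrier, was at 228, 281, and 220 CPM against 3.90, 3.58, and 11.0 CPM (log2 fold change 5.19 ± 0.25, edgeR adjusted p = 4.88e-07).

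On the vein side the 10 genes were *Fabp4*, *4833423E24Rik*, *Mmp16*, *Rnf165*, *Lhx6*, *Adamtsl3*, *Rspo3*, *Moxd1*, *Cd248*, and *Fgl2*. *Fabp4*, a fatty acid binding protein of microvascular ECs, was at 877, 1901, and 488 CPM vein-side and at 0.753, 0, and 3.06 CPM artery-side. *Rspo3*, an enhancer of Wnt signaling, had 135 UMIs vein-side and 2 artery-side, a ratio of 91.0 (95% counting interval 24.7 to 759). The locus *4833423E24Rik* had 101 UMIs against 0 and was at least 45.4-fold higher vein-side. *Lhx6*, a homeobox factor, was at 151, 123, and 130 CPM vein-side and at most 2.26 CPM artery-side (log2 fold change -6.45 ± 0.27, edgeR adjusted p = 2.07e-07). In every fit in which they could be tested, the 20 genes stayed on their side with an adjusted p under 0.05. With mixed ECs left out, *Stk32a*, *Dkk2*, *Sost*, *Kcne3*, *Tnfrsf26*, *4833423E24Rik*, *Adamtsl3*, *Moxd1*, and *Cd248* were not among the tested genes. Of these, only *4833423E24Rik*, *Adamtsl3*, and *Moxd1* were tested without mixed ECs when *Col14a1* was not counted.

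Markers of other cells moved with the vein side. Mixed ECs were 86 of 181 vein-side (47.5%) and 50 of 293 artery-side ECs (17.1%). Of 24 stromal marker genes 12 were tested, 9 were higher vein-side, and 1, *Stc1*, was higher artery-side, at 62.8 ± 14.3 against 13.7 ± 8.59 CPM. Of the 9, *Aspn*, *Col13a1*, *Cox4i2*, *Figf*, and *Tcf21* lost the call without mouse 2 and also without mouse 3 (edgeR adjusted p from 0.0516 to 0.32), so that 4 kept it. With mixed ECs left out only 2 of the stromal genes were tested, and 1, *Col14a1*, was higher vein-side. The smooth muscle gene *Myh11* was at 28.9 ± 11.5 CPM vein-side against 1.00 ± 1.74 artery-side, and the pericyte gene *Higd1b* at 27.6 ± 8.46 against 4.17 ± 2.65. Of 16 epithelial markers 8 were tested and of 32 immune markers 1, and none of these passed. With the mouse as a block *Akap5*, a gene of the alveolar type 1 list, passed vein-side (-1.41, edgeR adjusted p = 0.0118, against 0.31 without the block). With mixed ECs left out, 217 genes were higher artery-side and 185 vein-side of 6865 tested, and 13 artery and 7 vein genes of the lists still passed. That also left fewer UMIs in the sums. Vein-side sums went from 769907, 838091, and 1003575 UMIs to 257655, 267599, and 341695 in mice 2, 3, and 4. Artery-side sums went from 1328375, 882398, and 1308526 UMIs to 876965, 537483, and 850326. The part of the lower depth in the lost calls was not tested. The part of other cells' RNA in the calls was not tested.

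*Col14a1* needs a separate account, because its UMIs went with those of the vein set among the cells counted as ECs. It was at 269, 184, and 129 CPM vein-side and at 8.21 ± 6.14 CPM artery-side (log2 fold change -4.41 ± 0.39, edgeR adjusted p = 3.02e-05). Of the 87 ECs with at least 5 *Slc6a2* UMIs, 80 (92.0%) had a *Col14a1* UMI. Other genes of the Col14a1-type fibroblast list were less frequent there than in the fibroblasts. The fibroblasts were chosen by this list, so the rule favors high shares of its genes in them. *Pi16* was seen in 7 of 87 cells (8.05%), against 16.3% of Col14a1-type fibroblasts. *Clec3b* was seen in 0 of 87 cells, which allows a share of up to 3.45%, against 84.3% of Col14a1-type fibroblasts, and *Dpt* in 2 of 87, against 93.6%. *Col1a1* was at 33.7 CPM in these ECs and at 17478 CPM in the fibroblasts. The 181 vein-side ECs held more of it, at 291 CPM, against 30.7 CPM in artery-side ECs. *Dpt* was at 31.8 against 10.2 CPM and *Clec3b* at 9.57 against 6.25 CPM, while *Pi16* went the other way, at 4.21 against 10.8 CPM. Smooth muscle-like cells carried *Col14a1* too, in 67.1% of cells (320 CPM), against 57.6% of the fibroblasts (1087 CPM). They had *Clec3b* in 7.12%, *Pi16* in 0%, and *Dpt* in 25.4% of cells. In them *Col1a1* was at 2045 CPM and *Myh11*, a gene of the list that chose them, at 3444 CPM. *Myh11* was at 6.27 CPM in the 87 ECs with at least 5 *Slc6a2* UMIs. The source of the *Col14a1* UMIs in ECs was not tested. Through *Col14a1* alone, 38 vein-side and 0 artery-side ECs had been counted as mixed. With *Col14a1* not counted, mixed ECs were 26.5% of vein-side and 17.1% of artery-side ECs, and leaving these out gave 324 genes higher artery-side and 403 vein-side of 7298 tested. These genes were chosen after their values were seen.

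Genes that varied most like each of the 8 across ECs were found by Pearson's r of log-scaled values within each mouse, taking the lowest of the 3 mice over 10495 genes. These r are descriptions over the 228 to 363 ECs of a mouse, which share a library and differ in depth. *Gja4* was most like *Cxcl12* (r at least 0.58), *Sema3g* (0.55), and *Efnb2* (0.54). *Gja5* was most like *Mecom* (0.65), *Slc45a4* (0.65), and *Syt15* (0.64), and *Bmx* like *Trim47* (0.62), *Fbln5* (0.61), and *Cdc42ep3* (0.61). *Cytl1* was most like *Mgp* (0.61), *Ctsh* (0.58), and *Sulf1* (0.58).

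*Fgl2* and *Pgm5* recurred among the vein genes. They ranked first and second for *Nr2f2* (0.61 and 0.60), *Slc6a2* (0.78 and 0.76), and *Prss23* (0.64 and 0.60), and *Pgm5* was second for *Amigo2* (0.56) after *Car8* (0.57). Among the 8 genes themselves, the highest r was between *Slc6a2* and *Prss23*, from 0.69 to 0.82 over the mice, and in the artery set between *Gja5* and *Bmx*, from 0.54 to 0.69. Between the sets, *Gja4* with *Nr2f2* ran from -0.24 to -0.21, whereas *Cytl1* with *Amigo2* ran from 0.25 to 0.31.

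At the edge of the EC rule, the 26 cells with exactly 4 UMIs of *Cdh5* and *Cldn5* had 8 *Gja4*, 12 *Gja5*, 23 *Nr2f2*, and 4 *Slc6a2* UMIs in all, and a median depth of 1431.5 UMIs. The 33 cells with 3 UMIs, just outside it, had 3 *Gja4*, 2 *Gja5*, 29 *Nr2f2*, and 4 *Slc6a2* UMIs, with a median depth of 1075. *Bmx*, *Cytl1*, *Prss23*, and *Amigo2* had 9, 1, 7, and 2 UMIs in the 26 cells and 13, 14, 12, and 3 in the 33 cells. Near the lower bound of the side rule, 118 ECs had 3 or 4 artery set UMIs, and 88 ECs had 3 or 4 vein set UMIs, whatever their side.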

How the data were processed

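scRNA-Seq of whole lung was made for 3 C57BL/6 mice (10x v3 3' kit). The authors ran Cell Ranger 3.0.2 on mm10, per the labels, and deposited a table of UMI counts by gene and cell barcode for each mouse, without normalization; the annotation is not given in the sources used here. The series' design text gives 5677 lung cells; the tables hold 9644 barcodes, of which 7642 passed the filters used here (200 or more genes detected, no more than 20% of UMIs mitochondrial). The ECs of a mouse held 2859365 to 4162636 UMIs, so that the floor of detection, 3 UMIs, was 0.721 to 1.05 CPM. Intervals and floors cover counting error only.

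Cells were classed by UMIs of marker lists (at least 4, highest list), with no clustering; no doublet caller was run, and ECs with another lineage's markers were counted as mixed and left out in an alternative. Of 800 non-EC cells with lists of more than 1 lineage, 541 met both the alveolar type 2 and the B cell list only through *Napsa*. ECs were 949 cells with at least 4 *Cdh5* and *Cldn5* UMIs. The 8 genes and all lists were chosen with earlier results of these data known, and the levels of the 8 genes were given no test. Artery-side and vein-side ECs were summed per mouse and fitted with edgeR 4.0.16 (TMM, filterByExpr, quasi-likelihood, Benjamini-Hochberg adjustment, R 4.3.3); DESeq2 1.42.0 was an alternative. In simulated data for this comparison, with 9234 genes run, 99.5% of the genes changed by 2 on the log2 scale were recovered. The changed genes were drawn only from genes with many UMIs, with a common dispersion and no difference between mice. Recovery of genes with few UMIs was not tested. Both sums of a mouse come from the same animal, which pairs them; their deviations correlated at 0.0629, 0.0879, and 0.262 for mice 2, 3, and 4. Named were the 8 genes, members of the lists, the 10 genes of greatest fold per side with the same sign in every mouse, and the 3 genes most like each of the 8. Other data of the study were not analysed here.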

Additional observations from a re-analysis of the deposited data

How the results depend on the processing

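The calls were made with edgeR. The counts of genes higher artery-side and vein-side ranged from 225 to 254 and from 251 to 473 when a mouse was left out. Without a filter on low counts 770 genes were higher vein-side of 15989 tested. With *Gja4* not counted in the artery set the counts were 790 and 956, and with mixed ECs left out they were 217 and 185. With the mouse as a replicate block they were 369 and 478, and among 87 named genes the block ended the call of *Jag2* and gave one to *Nrp1*, *Akap5*, and *Ednrb* (-0.43, edgeR adjusted p = 0.0474), and it changed no other call. DESeq2, other thresholds of the sides, no TMM scaling, and the vein set without *Prss23* kept both counts within 1.5 times. Leaving out lymphatic or dividing ECs, or mixed ECs with *Col14a1* not counted, was chosen after seeing the data and also did. The genes called changed more than the counts show. Of the 361 artery-side and 494 vein-side calls, 262 and 274 remained without mixed ECs when *Col14a1* was not counted. Without any mixed ECs 189 and 155 remained, and without mouse 2 209 and 233 did. With the mouse as a block 340 and 450 remained, and with DESeq2 268 and 371 did. Among the named genes DESeq2 ended the calls of *Aspn*, *Cpe*, *Jag2*, *Unc5b*, and *Vwf* and gave one to *Nrp1* and *Selp*. A gene not tested in a fit counts here as not remaining.

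Direction turned with *Gja4* not counted for *Sema3c* (-3.96), *Car4* (-2.46), *Kit* (-2.13), *Hopx* (-1.99), *Lamp3* (-0.94), *Slc34a2* (-0.12), *Cd36* (-0.76), *Cpe* (0.86), *Eln* (0.37), *Fbln2* (0.62), *Il1r1* (0.036), *Plvap* (0.19), and *Vwf* (0.98, all log2 fold changes). Without mixed ECs *Plvap* (0.084), *Kit* (-0.17), *Scgb1a1* (-0.27), and *Sema3c* (-0.65) turned, and with *Col14a1* not counted *Scgb1a1* (-0.027) and *Sema3c* (-0.15). Without dividing ECs *Hopx* (-0.11) and *Slc34a2* (-0.73) turned, without lymphatic ECs *Sema3c* (-0.010), with at least 5 UMIs of a set *Ager* (1.25) and *Napsa* (0.80), and without *Prss23* in the vein set *Gpihbp1* (0.16). With a mouse left out the sign also varied for *Ager* (-1.48 to 0.50), *Dpt* (-1.49 to 0.069), *Gpihbp1* (-0.38 to 0.10), *Scgb1a1* (-0.13 to 0.23), and *Sema3c* (-0.21 to 0.35). *Jag1* ranged from -0.056 to 0.31 when a mouse was left out, with a negative value without mouse 3 (-0.011) or mouse 4, and it turned without *Prss23* in the vein set (-0.10), and without mixed ECs when *Col14a1* was not counted (-0.26). The cause was not tested.

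The share of artery-side ECs was 27.3% with at least 2 *Cdh5* and *Cldn5* UMIs and 34.1% without mixed ECs, and that of vein-side ECs was 14.4% without mixed ECs. Leaving out a mouse kept both shares within the spread between mice. Without mixed ECs the EC level of *Slc6a2* was 114 CPM, that of *Nr2f2* 104 CPM, and that of *Prss23* 140 CPM, all more than 1.5 times lower; with *Col14a1* not counted, 15 of 16 levels and shares stayed within the spread between mice, all but the level of *Prss23* (263 CPM). Cells of low depth limit all shares of cells with a UMI, as the thinned values show.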
